A study of Mus musculus with 16 samples.

Results

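The genes of fatty acid oxidation and of the peroxisome were examined in kidneys of Aqp11 knockout mouse pups. The set was defined by gene symbol from knowledge of the pathway, and it lists 41 genes. Like all other lists used here, it was chosen with earlier results of these data known. Of these, 40 had a probe set annotated to that gene alone, among 18194 genes with such a probe set, and 39 were bright enough to test. Acsl1 was not analysed here, since no probe set naming it alone was among the annotated ones. The groups were 9 Aqp11-/- pups, of which 5 were male and 4 female, and 7 Aqp11+/+ littermates, of which 3 were male and 4 female. All were 7 days old, and each gave 1 kidney RNA sample and 1 Affymetrix Mouse Genome 430 2.0 array. The null allele, made in 129/SvEvBrd mice and crossed back to C57/BL6, came from heterozygous parents, and the labels name no tissue limit on it. Several breeding pairs were used, and the labels do not tie pups to pairs. The Aqp11 protein is a water channel family member found in the endoplasmic reticulum, and the study set its loss against normal kidney gene expression.

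Aqp11 itself matched the labels on every array. Its log2 signal averaged 2.95 ± 0.33 in knockout kidneys (SD, n = 9), where 7 arrays lay at the floor set on dim signals, and 7.87 ± 0.16 in wild-type kidneys (SD, n = 7). The fall was at least 30.3-fold (limma adjusted p = 3.89e-14, and two-sided exact permutation p = 8.74e-05, the lowest possible with 9 and 7 arrays). The trimmed mean signal of an array, which stands in for depth on arrays, ran from 111 to 236 before normalization, and 4 knockout and 4 wild-type arrays made up the brighter 8. The number of animals limits the precision.

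Fatty acids are burnt in both mitochondria and peroxisomes. In the mitochondrion, acyl-CoA is carried in by the carnitine shuttle and shortened in a cycle of dehydrogenation, hydration, a second dehydrogenation and thiolysis, with electrons passed on by the electron transfer flavoprotein. Peroxisomes take very long, branched and dicarboxylic acyl chains, shorten them with their own oxidases, bifunctional enzymes and thiolases, and pass the products to mitochondria. The proximal tubule of the kidney takes much of its energy from fatty acids and is rich in both organelles. The nuclear receptor PPAR alpha (Ppara), with RXR and the coactivator PGC-1 alpha (Ppargc1a), is a main activator of these genes, and binds paired copies of the core site AGGTCA spaced by 1 base.

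The promoters of 33 of the 40 measured genes were matched in the RefSeq table of GRCm38.p6, which holds 250 bases before and 50 after each start. They were searched on both strands for the core site AGGTCA and for the direct repeat AGGNCANAGGNCA, which can overlap a core site. The 5 promoters below are those of 3 genes that fell clearly (Ehhadh, Acaa1b and Slc27a2), of Acadm, the textbook gene of medium-chain oxidation, and of Fabp1, the only member with the direct repeat in this window. Each runs 5′ to 3′ along the gene's own strand, and capitals mark a match to either motif. Ehhadh lies at chr16:21787785-21788084 on the minus strand, Acaa1b at chr9:119157044-119157343 on the minus strand, Slc27a2 at chr2:126552774-126553073 on the plus strand, Acadm at chr3:153944594-153944893 on the minus strand and Fabp1 at chr6:71199629-71199928 on the plus strand.
Ehhadh: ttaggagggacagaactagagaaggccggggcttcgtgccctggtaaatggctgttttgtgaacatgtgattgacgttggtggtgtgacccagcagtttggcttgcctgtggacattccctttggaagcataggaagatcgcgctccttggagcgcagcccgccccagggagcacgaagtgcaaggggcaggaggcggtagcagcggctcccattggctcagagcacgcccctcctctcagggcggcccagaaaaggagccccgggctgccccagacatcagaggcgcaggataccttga
Acaa1b: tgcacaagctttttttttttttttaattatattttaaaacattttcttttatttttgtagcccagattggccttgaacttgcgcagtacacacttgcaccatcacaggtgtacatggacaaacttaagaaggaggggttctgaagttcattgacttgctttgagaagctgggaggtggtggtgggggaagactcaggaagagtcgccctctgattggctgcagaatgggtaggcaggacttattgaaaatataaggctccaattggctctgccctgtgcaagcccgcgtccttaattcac
Slc27a2: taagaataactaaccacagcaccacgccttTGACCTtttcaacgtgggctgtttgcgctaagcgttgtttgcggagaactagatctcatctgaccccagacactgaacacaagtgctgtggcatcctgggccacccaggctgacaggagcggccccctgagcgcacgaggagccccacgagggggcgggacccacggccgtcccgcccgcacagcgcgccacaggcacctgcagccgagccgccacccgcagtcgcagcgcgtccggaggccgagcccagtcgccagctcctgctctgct
Acadm: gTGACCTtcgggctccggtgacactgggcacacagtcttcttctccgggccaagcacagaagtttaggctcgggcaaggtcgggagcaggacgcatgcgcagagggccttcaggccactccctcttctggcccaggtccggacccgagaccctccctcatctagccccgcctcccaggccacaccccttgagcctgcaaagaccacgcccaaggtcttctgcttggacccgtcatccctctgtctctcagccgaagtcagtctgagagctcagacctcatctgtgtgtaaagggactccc
Fabp1: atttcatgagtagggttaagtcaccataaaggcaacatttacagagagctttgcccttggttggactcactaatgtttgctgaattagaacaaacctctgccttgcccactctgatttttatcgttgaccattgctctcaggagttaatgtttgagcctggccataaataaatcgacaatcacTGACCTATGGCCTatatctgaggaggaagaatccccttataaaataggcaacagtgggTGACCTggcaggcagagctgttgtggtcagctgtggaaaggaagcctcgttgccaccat

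The direct repeat of Fabp1 begins 67 bases before the start and overlaps a core site, and a further core site begins 9 bases before the start. The core site of Slc27a2 begins 220 bases before the start and that of Acadm 249 bases before it. No match was found in the Ehhadh and Acaa1b windows, which says only that these letters are not in these 300 bases. The direct repeat was in 1 of 33 members' promoters (3.03%) and in 0.381% of all 32851 promoters in the table, or 0.451% of its 27025 genes. The core site was in 7 of 33 (21.2%), namely Acadm, Acadvl, Cpt1a, Fabp1, Phyh, Scp2 and Slc27a2, and in 16.3% of all promoters, or 18.1% of all genes. Of the members with a promoter, 4 of the 22 that fell and 2 of the 10 without a call held the core site. These matches are descriptions of sequence, and binding was not measured.

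The members moved in 1 direction in the knockout kidney. Of 39 tested members, 28 fell and 0 rose, where 8.35% of all 12500 tested genes fell, 9.37% rose and 17.7% changed in either direction (limma with Benjamini-Hochberg adjustment over all tested genes). The largest falls were those of the peroxisomal bifunctional enzyme gene Ehhadh (2.1-fold), the peroxisomal membrane channel gene Pxmp2 (1.93-fold) and the peroxisomal thiolase gene Acaa1b (1.72-fold). The median log2 change of the 39 members was -0.29, and that of all tested genes was 0.0031. In 13 members every knockout array lay below every wild-type array, a pattern seen in 2.43% of all tested genes, and 0 had their groups apart in the other direction, seen in 2.91% of all tested genes. The fitted change was negative for 37 members and positive for Acox3 and Pex14, neither of which passed the test, and at an unadjusted p under 0.05 also 0 members were higher. Proximal tubule markers, described with the other cell types, fell for 26 of 29 in the same arrays, and their part in the members' fall was not tested. Whole kidney was measured, so fewer cells of a type and less RNA per cell cannot be told apart.

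**Figure D1:**
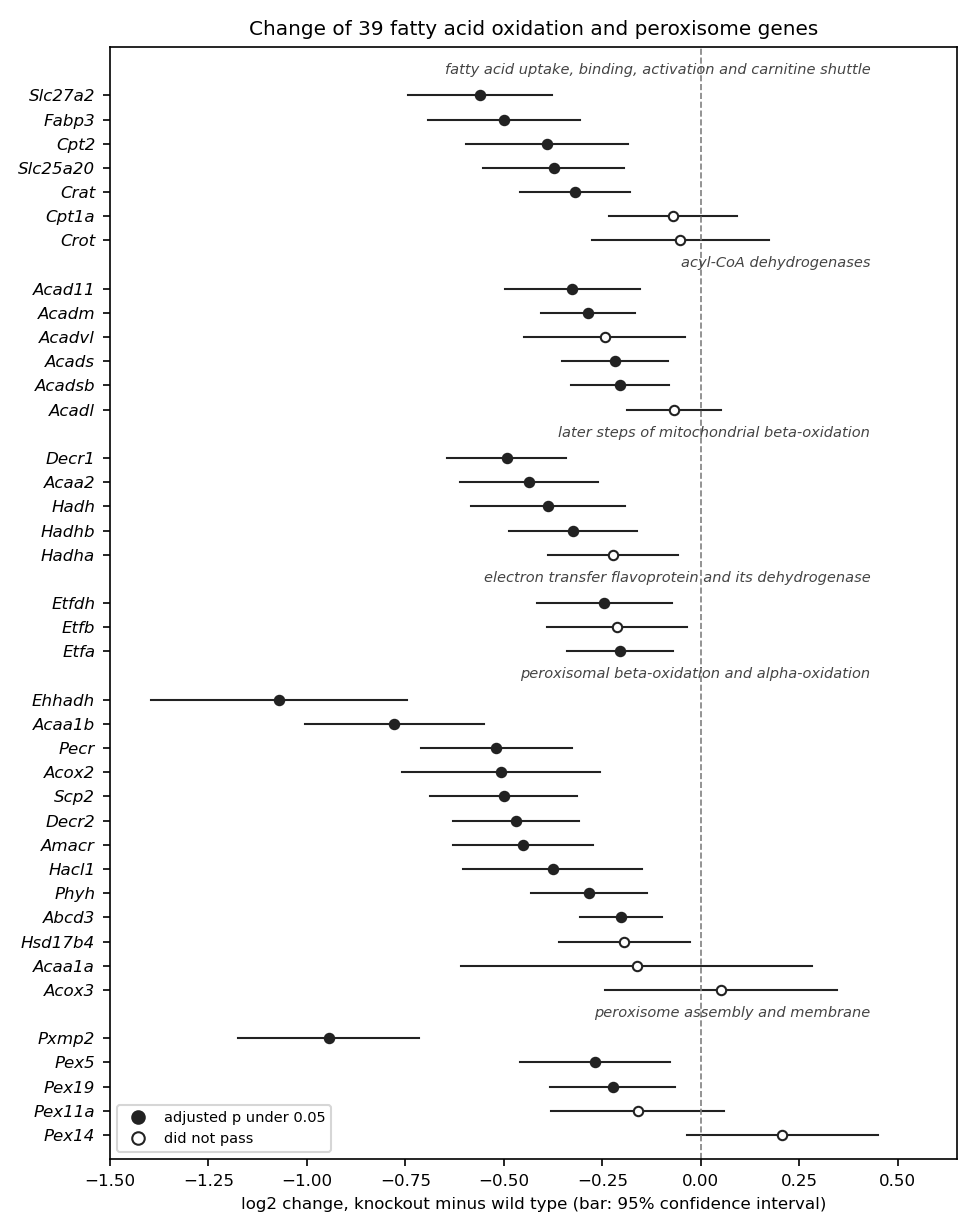
Change of each tested member, as knockout minus wild-type log2 signal with its 95% interval, ordered by role. Filled points passed the limma test at an adjusted p of 0.05, and all 28 of them lie left of zero, from Ehhadh at -1.07 to Abcd3 at -0.20.

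The call counts depended on scaling between arrays. With median centring in place of quantile normalization, 20 of 39 members fell beside 6.56% of all genes. With the deposited intensities left unscaled, 3 of 39 members fell (Ehhadh, Pxmp2 and Acaa1b) beside 1.23% of all genes. No member rose under either. A level here is RNA only, and protein, enzyme activity and fatty acid flux were not measured.

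Peroxisomal oxidation held 2 of the 3 largest falls, those of Ehhadh and Acaa1b. Of its 13 members, 10 fell and 0 rose, beside 8.35% and 9.37% of all tested genes, with a median log2 change of -0.45. Ehhadh encodes the bifunctional enzyme that hydrates and dehydrogenates straight-chain and dicarboxylic acyl-CoA. Its log2 signal (probe set 1448382_at) had a lowest, median and highest value of 8.45, 9.08 and 9.58 in knockout kidneys, against 9.67, 10.28 and 10.55 in wild-type kidneys. The 2 groups did not overlap, and the log2 change was -1.07 ± 0.16 (SE, limma adjusted p = 4.59e-05). Its level averaged 9.07 ± 0.36 in knockout kidneys (SD, n = 9) and 10.14 ± 0.36 in wild-type kidneys (SD, n = 7). Hsd17b4, which encodes the other bifunctional enzyme, used for branched chains and bile acid precursors, did not pass the test at a log2 change of -0.19 (95% interval -0.36 to -0.028, limma adjusted p = 0.104).

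Acaa1b encodes one of a pair of mouse peroxisomal thiolases. Its log2 signal (probe set 1424451_at) had a lowest, median and highest value of 9.82, 10.61 and 10.68 in knockout kidneys, against 10.98, 11.25 and 11.59 in wild-type kidneys. The groups were apart although knockout array 2-3 lay well below the other knockout arrays, and the log2 change was -0.78 ± 0.11 (SE, limma adjusted p = 3.05e-05). The close paralog Acaa1a, for which the brightest probe set was a dim one of a type that may bind related transcripts, did not pass the test at a log2 change of -0.16 (95% interval -0.61 to 0.28, limma adjusted p = 0.682), and its other tested probe set had one of 0.13. Scp2, whose longer product is the thiolase for branched chains, had a lowest, median and highest log2 signal of 10.73, 11.16 and 11.43 in knockout kidneys, against 11.44, 11.72 and 11.91 in wild-type kidneys. The groups were again apart, by a narrow gap, with a log2 change of -0.50 (limma adjusted p = 0.000404).

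Of the 2 measured oxidases at the head of the peroxisomal cycle, 1 passed the test. Acox2, the oxidase of branched chains and bile acid precursors, had a lowest, median and highest log2 signal of 6.01, 6.58 and 6.95 in knockout kidneys, against 6.67, 7.13 and 7.31 in wild-type kidneys. Because wild-type array 2-1 was low, 3 knockout arrays lay inside the wild-type range, and the log2 change was -0.51 ± 0.12 (SE, limma adjusted p = 0.00486). Acox3, which encodes the pristanoyl-CoA oxidase, did not pass the test at a log2 change of 0.051 (95% interval -0.24 to 0.34, limma adjusted p = 0.861), and its 9 knockout arrays all lay inside the wild-type range.

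Auxiliary enzymes of the peroxisome fell as well. Pecr, a reductase of trans-2-enoyl-CoA, had a lowest, median and highest log2 signal of 8.59, 9.00 and 9.18 in knockout kidneys, against 9.26, 9.41 and 9.78 in wild-type kidneys, and the groups were apart (log2 change -0.52, limma adjusted p = 0.000354). Decr2, the peroxisomal dienoyl-CoA reductase needed for unsaturated chains, had 7.61, 7.74 and 7.88 in knockout kidneys, against 7.96, 8.18 and 8.52 in wild-type kidneys. It too showed no overlap, with a log2 change of -0.47 (limma adjusted p = 0.000163). Amacr, the racemase that turns branched chains into the form the oxidases accept, had 8.61, 8.91 and 9.18 in knockout kidneys, against 9.16, 9.32 and 9.62 in wild-type kidneys. Only the highest knockout array entered the wild-type range, and the log2 change was -0.45 (limma adjusted p = 0.000648). Both measured enzymes of alpha-oxidation, which removes a single carbon from phytanic acid, also fell, Phyh by 0.28 and Hacl1 by 0.38 on the log2 scale (limma adjusted p = 0.0068 and 0.0196). Abcd3, the membrane transporter PMP70 that brings acyl-CoA into the peroxisome, fell by 0.20 (limma adjusted p = 0.00634).

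**Figure D2:**
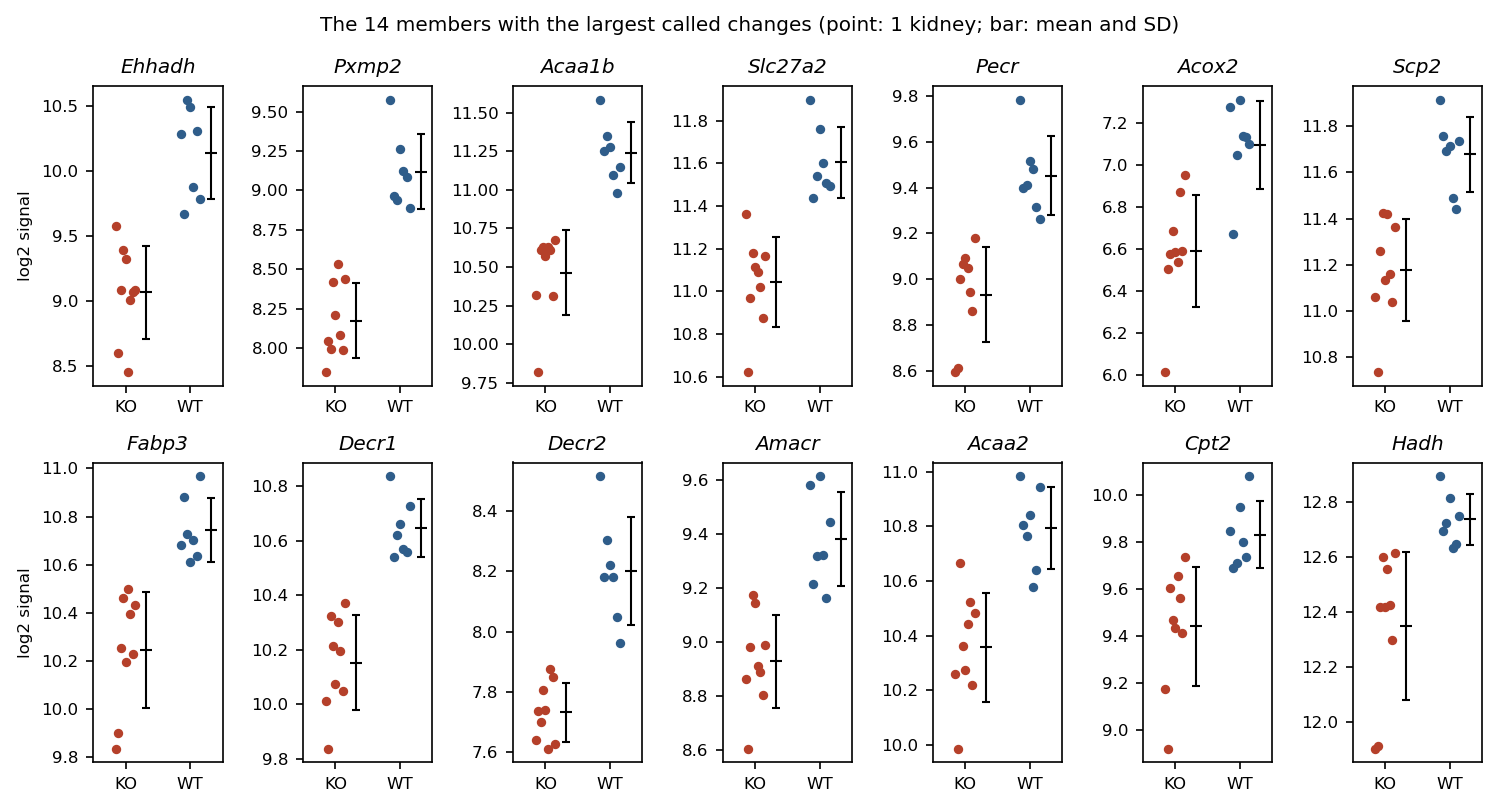
Log2 signal on each array for the members with the largest falls, with knockout pups (n = 9) left of wild-type pups (n = 7), and the mean and SD of each group. In Ehhadh, Pxmp2 and Acaa1b the highest knockout array (9.58, 8.53 and 10.68) lies below the lowest wild-type array (9.67, 8.89 and 10.98).

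Genes of peroxisome assembly and membrane fell for 3 of 5 tested members and rose for 0, beside 8.35% and 9.37% of all tested genes. Pxmp2 encodes a channel of the peroxisomal membrane that lets small solutes through. Its log2 signal (probe set 1417841_at) had a lowest, median and highest value of 7.85, 8.09 and 8.53 in knockout kidneys, against 8.89, 9.08 and 9.58 in wild-type kidneys. The groups were well apart, and the log2 change was -0.94 ± 0.11 (SE, limma adjusted p = 3.34e-06). Pex5, the import receptor of matrix proteins, fell by 0.27 and Pex19, the chaperone of membrane proteins, by 0.22 on the log2 scale, both near the threshold (limma adjusted p = 0.0457 and 0.0466), and both calls were lost with 11 and 12 of the 16 arrays left out in turn. Pex14, the docking protein for Pex5, had a lowest, median and highest log2 signal of 7.65, 7.97 and 8.29 in knockout kidneys, against 7.34, 7.91 and 8.01 in wild-type kidneys. The groups overlapped, and its log2 change, 0.21, was not called (95% interval -0.035 to 0.45, limma adjusted p = 0.256). Pex11a, which acts in peroxisome division, did not pass the test at a log2 change of -0.16 (95% interval -0.38 to 0.058, limma adjusted p = 0.345). Among 9 other tested peroxins, 0 passed the limma test in either direction (2 were lower at an unadjusted p under 0.05), with log2 changes from -0.35 for Pex10 to 0.092 for Pex11g.

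Fatty acid uptake, binding and the carnitine shuttle fell for 5 of 7 tested members and rose for 0, with a median log2 change of -0.37. Of all tested genes, 8.35% fell and 9.37% rose. Slc27a2 encodes FATP2, a transporter that also activates very long chains to acyl-CoA. Its lowest, median and highest log2 signal was 10.62, 11.09 and 11.36 in knockout kidneys, against 11.44, 11.54 and 11.90 in wild-type kidneys. The groups were apart, and the log2 change was -0.56 ± 0.087 (SE, 1.48-fold lower, limma adjusted p = 9.89e-05). Fabp3, a cytosolic fatty acid binding protein, had 9.83, 10.25 and 10.50 in knockout kidneys, against 10.61, 10.70 and 10.97 in wild-type kidneys. It was likewise apart, with a log2 change of -0.50 (limma adjusted p = 0.000536). Fabp1, its liver relative, was too dim to test, with 2.78, 2.78 and 3.42 in knockout kidneys, against 2.78, 3.51 and 4.57 in wild-type kidneys, and 5 knockout arrays and 1 wild-type array lay at the floor.

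Along the shuttle, the first enzyme did not pass the test and the next 2 did. Cpt1a, the rate-limiting outer membrane transferase, did not pass the test at a log2 change of -0.071 (95% interval -0.23 to 0.092, limma adjusted p = 0.617). The translocase gene Slc25a20 fell by 0.37 on the log2 scale (limma adjusted p = 0.0039). Cpt2, the inner membrane transferase, had a lowest, median and highest log2 signal of 8.92, 9.47 and 9.74 in knockout kidneys, against 9.69, 9.80 and 10.08 in wild-type kidneys. A single knockout array entered the wild-type range, and the log2 change was -0.39 ± 0.099 (SE, limma adjusted p = 0.00784). Crat, which moves acetyl groups onto carnitine, fell by 0.32 with the groups apart (limma adjusted p = 0.00176), and Crot, the peroxisomal transferase of medium chains, did not pass the test at a log2 change of -0.052 (95% interval -0.28 to 0.17, limma adjusted p = 0.809). Whether the change in Cpt1a differed from that in Cpt2 was not tested.

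The acyl-CoA dehydrogenases start each mitochondrial round and differ in the chain length they take. They fell for 4 of 6 members and rose for 0, beside 8.35% and 9.37% of all tested genes. Acadm, the medium-chain enzyme, had a lowest, median and highest log2 signal of 10.99, 11.30 and 11.43 in knockout kidneys, against 11.50, 11.55 and 11.71 in wild-type kidneys. The change was small, at -0.29 ± 0.057 (log2, SE), but the groups were apart (limma adjusted p = 0.00107). Acad11, a further dehydrogenase of this family, fell by 0.33 with no overlap (limma adjusted p = 0.00755), the short-chain gene Acads by 0.22 (limma adjusted p = 0.021) and the branched-chain gene Acadsb by 0.20 (limma adjusted p = 0.0206). Acadvl, the very long-chain enzyme at the inner membrane, had 9.94, 10.46 and 10.79 in knockout kidneys, against 10.50, 10.70 and 10.90 in wild-type kidneys. With 4 knockout arrays inside the wild-type range, its log2 change, -0.24, was not called (95% interval -0.45 to -0.041, limma adjusted p = 0.0946). Acadl, the long-chain enzyme, did not pass the test at a log2 change of -0.068 (95% interval -0.19 to 0.050, limma adjusted p = 0.482).

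The later mitochondrial steps fell for 4 of 5 members and rose for 0, with a median log2 change of -0.39. Of all tested genes, 8.35% fell and 9.37% rose. Decr1, the mitochondrial dienoyl-CoA reductase and counterpart of Decr2, had a lowest, median and highest log2 signal of 9.84, 10.19 and 10.37 in knockout kidneys, against 10.54, 10.62 and 10.84 in wild-type kidneys. The groups were apart, and the log2 change was -0.49 ± 0.073 (SE, limma adjusted p = 5.45e-05). Acaa2, the mitochondrial thiolase, had 9.99, 10.36 and 10.67 in knockout kidneys, against 10.58, 10.80 and 10.98 in wild-type kidneys. Its highest knockout array alone lay above the lowest wild-type array, with a log2 change of -0.44 (limma adjusted p = 0.000827). Hadh, the dehydrogenase of short hydroxyacyl-CoA, had 11.90, 12.42 and 12.61 in knockout kidneys, against 12.64, 12.73 and 12.90 in wild-type kidneys. The gap between its groups was narrow (log2 change -0.39, limma adjusted p = 0.0058).

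The trifunctional protein, which carries the last 3 steps for long chains, is built from the products of Hadha and Hadhb. Hadhb fell by 0.32 on the log2 scale (limma adjusted p = 0.0052), a call that rests on 1 of its 3 tested probe sets and was lost with the mean over probe sets (log2 change -0.14, limma adjusted p = 0.171). Hadha had a lowest, median and highest log2 signal of 9.54, 9.91 and 10.06 in knockout kidneys, against 9.87, 10.07 and 10.34 in wild-type kidneys. Its groups overlapped on 5 knockout arrays and its log2 change, -0.22, was not called (95% interval -0.39 to -0.058, limma adjusted p = 0.0578). Of the electron transfer genes, Etfa fell by 0.20 and Etfdh, the dehydrogenase that hands electrons to ubiquinone, by 0.25 (limma adjusted p = 0.0311 and 0.043). Both calls were fragile, and they were lost with 8 and 10 of the 16 arrays left out in turn. Etfb, the partner subunit of Etfa, had 10.43, 10.83 and 11.06 in knockout kidneys, against 10.86, 11.00 and 11.21 in wild-type kidneys. The groups overlapped, and the log2 change, -0.21, was not called (95% interval -0.39 to -0.035, limma adjusted p = 0.0955).

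Other probe sets of the same genes gave a check within the arrays. For 16 members, 23 further probe sets passed the filter, and 22 of them changed in the same direction as the brightest one. In a fit over 23191 probe sets, 6 of the 23 passed as lower and 0 as higher. The share of all 23191 that passed in this fit was not computed, so 6 of 23 has no background beside it. The brightest probe sets of Hadh, Acadsb and Acaa1a are of a type that may bind related transcripts, and that of Acaa2 may bind several transcripts. The gene-specific probe set of Hadh (1460184_at) had a log2 change of -0.51 (limma adjusted p = 1.69e-05), a second one of Decr1 (1449443_at) -0.70 (limma adjusted p = 4.44e-05) and a gene-specific one of Acaa2 (1428145_at) -0.31 (limma adjusted p = 0.00774). The other 2 tested probe sets of Hadhb did not pass, with log2 changes of -0.084 (1437172_x_at, limma adjusted p = 0.76) and -0.024 (1442732_at, limma adjusted p = 0.95). Nor did the other tested ones of Scp2 pass, with log2 changes of -0.38 (1449686_s_at), -0.32 (1419975_at) and -0.44 (1419974_at). Their limma adjusted p values were 0.195, 0.549 and 0.484.

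**Figure D3:**
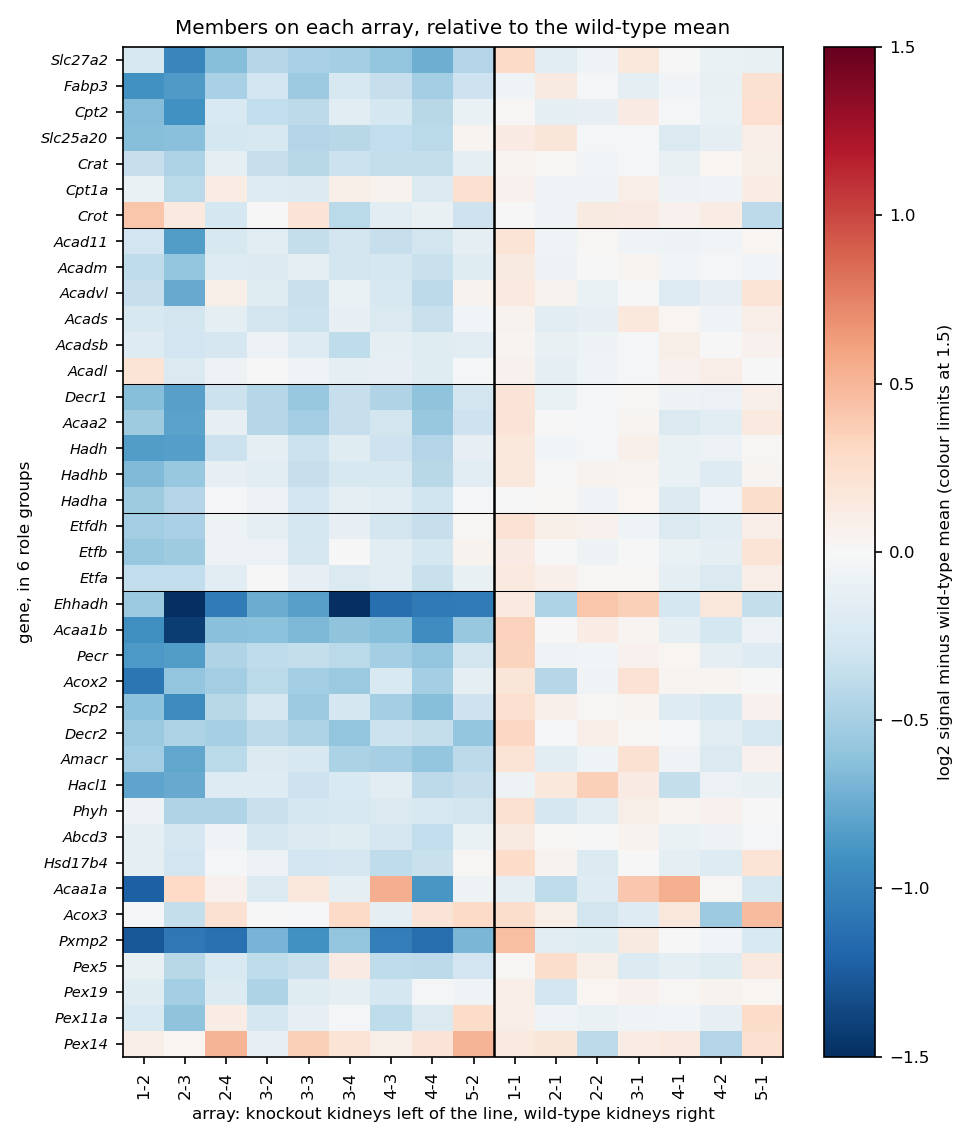
Each member's log2 signal on each array minus its wild-type mean, with the 9 knockout arrays left of the 7 wild-type arrays and the members grouped by role. Knockout arrays 2-3 and 1-2 are the lowest (means over the 39 members of -0.58 and -0.45) and knockout array 5-2 is nearest to wild type (-0.17).

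The fall was spread over all knockout arrays but differed in depth between them. The mean log2 signal over the 39 members ran from 9.15 to 9.56 in knockout kidneys and from 9.63 to 9.87 in wild-type kidneys, without overlap. From 30 (array 5-2) to 38 (array 3-2) of the 39 members lay below their wild-type mean on a knockout array. Array 2-3 was the lowest knockout array for 17 members and array 1-2 for 13, and array 5-2 was the highest for 16. The SD was larger in the knockout group than in the wild-type group for 30 of 39 members. Without array 2-3, 24 members and 7.43% of all genes fell, and without array 1-2, 25 members and 7.94% of all genes fell.

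No member's genotype effect differed between the sexes past the threshold. The difference between the genotype effects of males and females passed for 0 of 39 members and 0 of 12500 genes (limma interaction, lowest member adjusted p = 0.455). At an unadjusted p under 0.05 the interaction reached 10.8% of all genes and 0 members, with interaction sizes from -0.49 to 0.37 in log2 among the members. The sex effect itself, with genotype as a term, passed for 0 members (5 at an unadjusted p under 0.05) and for 0.048% of all genes.

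Some genes that regulate the pathway fell too. Among 17 tested PPAR receptors, partners and coactivators, 7 fell and 0 rose, where 8.35% of all tested genes fell and 9.37% rose. Ppara had a lowest, median and highest log2 signal of 5.39, 6.55 and 7.03 in knockout kidneys, against 6.84, 7.41 and 8.02 in wild-type kidneys. One knockout array entered the wild-type range, and the log2 change was -1.03 ± 0.19 (SE, 2.04-fold lower, limma adjusted p = 0.000535). Ppargc1a had 7.86, 8.08 and 8.36 in knockout kidneys, against 8.37, 8.66 and 8.75 in wild-type kidneys. The groups met without overlapping, with a log2 change of -0.53 ± 0.079 (SE, limma adjusted p = 5.86e-05). The oestrogen-related receptor genes Esrrb and Esrra, partners of PGC-1 alpha in mitochondrial gene control, fell by 0.67 and 0.44 (limma adjusted p = 0.00212 and 0.018), and the mitochondrial deacetylase gene Sirt3 by 0.57 (limma adjusted p = 0.00178). Rxra, the gene of the receptor's partner, did not pass the test at a log2 change of -0.075 (limma adjusted p = 0.663).

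Of 15 tested PPAR alpha targets outside the member set, 5 fell and 1 rose, where 8.35% of all tested genes fell and 9.37% rose, with a median log2 change of -0.10. Cyp4a14, a fatty acid omega-hydroxylase and a standard PPAR alpha response gene in mouse liver, had a lowest, median and highest log2 signal of 6.10, 7.02 and 8.52 in knockout kidneys, against 9.37, 10.05 and 10.36 in wild-type kidneys. The groups were far apart (log2 change -2.88 ± 0.24, SE, limma adjusted p = 4e-08). Vnn1, Cyp2j5 and Cyp4a31 fell by 0.92, 0.68 and 0.61 (limma adjusted p = 0.00101, 0.000194 and 0.000492).

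In the other direction, Plin2, the coat protein of lipid droplets, had 9.97, 10.22 and 10.53 in knockout kidneys, against 9.77, 9.82 and 10.03 in wild-type kidneys. Although 3 knockout arrays lay inside the wild-type range, it rose by 0.37 ± 0.079 (log2, SE, 1.29-fold, limma adjusted p = 0.00233). Pdk4, the kinase that spares glucose when fat is burnt, had a log2 change of 0.13 and Angptl4, a secreted lipase inhibitor, one of -0.068, and neither passed (limma adjusted p = 0.714 and 0.778). Cyp4a10 was not analysed here.

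Genes of the wider pathway fell more often than they rose. Over all further pathway lists, which hold 116 tested genes outside the members, 45 fell and 3 rose, with a median log2 change of -0.19. Of all tested genes, 8.35% fell and 9.37% rose. In mitochondrial oxidation, 16 of 25 further genes fell and 0 rose. Slc22a5, the carnitine transporter OCTN2 of the plasma membrane, had a lowest, median and highest log2 signal of 9.31, 9.53 and 9.89 in knockout kidneys, against 10.16, 10.31 and 10.57 in wild-type kidneys. The groups were apart, with a log2 change of -0.75 ± 0.077 (SE, limma adjusted p = 6.35e-07). The mitochondrial coenzyme A carrier gene Slc25a42 fell by 0.79 (limma adjusted p = 4.09e-05), and the medium-chain synthetase gene Acsm5 and the dehydrogenase genes Acad12 and Acad10 by 1.19, 0.90 and 0.70 (limma adjusted p = 0.00536, 0.00374 and 0.00224).

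Among other peroxisomal enzymes, 10 of 22 fell and 0 rose, where 8.35% of all tested genes fell and 9.37% rose. Catalase (Cat), which removes the hydrogen peroxide the oxidases make, had 9.67, 9.87 and 10.35 in knockout kidneys, against 9.84, 10.46 and 10.81 in wild-type kidneys. The groups overlapped on 5 knockout arrays, with a log2 change of -0.46 (limma adjusted p = 0.0183). Enzymes outside fat oxidation fell too, Pipox (sarcosine and pipecolate oxidase) by 0.92, Hao2 (a hydroxyacid oxidase) by 0.64 and Dao (D-amino acid oxidase) by 0.58 on the log2 scale (limma adjusted p = 0.000174, 3.74e-05 and 1.72e-05). Pxmp4, a peroxisomal membrane protein gene, fell by 0.52, and Abcd4, named for the peroxisomal transporter family but acting in lysosomal cobalamin export, by 0.55 (limma adjusted p = 0.000163 and 0.000274).

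Acyl-CoA synthetases, transporters and thioesterases fell for 5 of 25 and rose for 2, where 8.35% of all tested genes fell and 9.37% rose. The rises were thus about as frequent as over all tested genes. The thioesterase genes Acot3, Acot12, Acot4 and Acot13 fell by 1.12, 1.06, 0.46 and 0.43 (limma adjusted p = 1.15e-06, 0.000271, 0.00567 and 0.0169). Acot9, a mitochondrial thioesterase, rose by 0.28 and Fabp5, a fatty acid binding protein of epithelia and macrophages, by 0.36 (limma adjusted p = 0.0021 and 0.0458). Of 6 ketone body genes, 3 fell and 0 rose, namely the monocarboxylate transporter Slc16a7 by 0.69, Bdh2 by 0.62 and the thiolase Acat1 by 0.36 (limma adjusted p = 1.82e-05, 0.000115 and 4.65e-05).

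**Figure D4:**
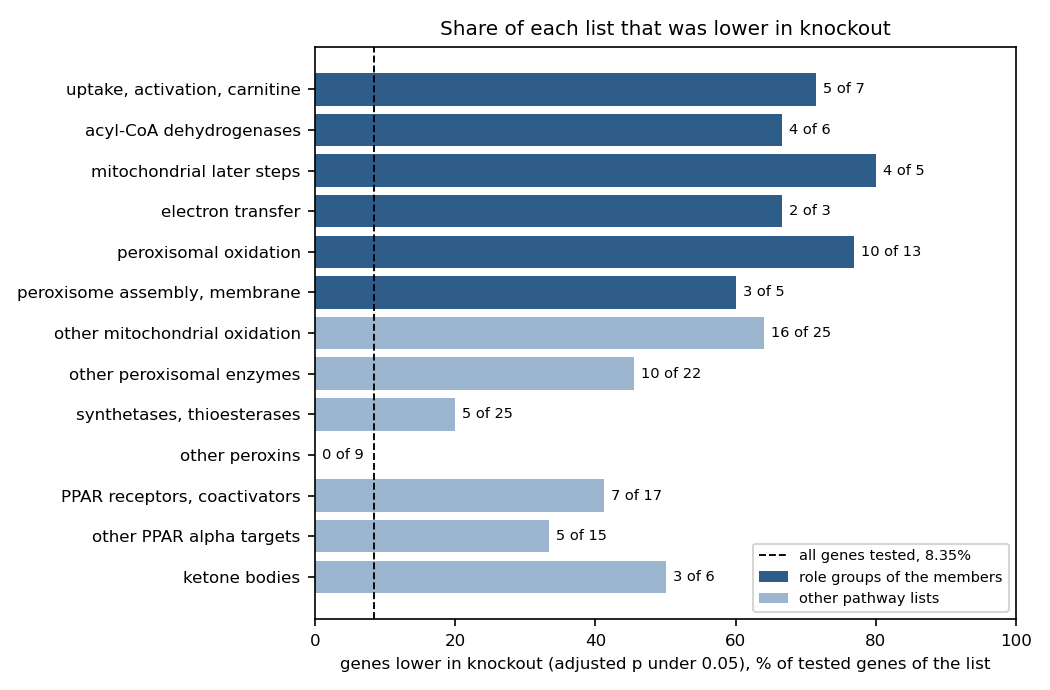
Share of the tested genes of each member role group and each further pathway list that fell (log2 change below 0, limma adjusted p under 0.05), with a dashed line at the share of all tested genes. The member groups fell for between 60% and 80% of their genes, against 8.35% of all tested genes, and the other peroxins for 0%.

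Marker genes of kidney cell types moved with genotype in the same arrays, where 8.35% of all tested genes fell and 9.37% rose. Proximal tubule markers fell for 26 of 29 and rose for 0, with a median log2 change of -0.72, larger in size than that of the members. Their mean log2 signal ran from 9.13 to 9.81 in knockout kidneys and from 10.21 to 10.54 in wild-type kidneys. Of the thick ascending limb and distal markers, 4 of 10 fell and 0 rose, with list means from 9.36 to 9.76 in knockout kidneys and from 9.82 to 10.05 in wild-type kidneys. Egf fell by 1.91 and Bsnd by 0.64 on the log2 scale, and Umod did not pass the test at a log2 change of 0.22 (limma adjusted p = 1.36e-07, 0.00115 and 0.0787). Macrophage markers rose for 15 of 16 and fell for 0, with a median of 1.60, and their mean ran from 8.28 to 8.87 in knockout kidneys and from 6.71 to 7.56 in wild-type kidneys. Of the other lists, collecting duct markers fell for 6 of 12 and rose for 1. Their fitted changes were negative for 8 and positive for 4, with Slc26a4 at -1.08 and Aqp2 at 0.90 (limma adjusted p = 0.00379 and 6.73e-05). Podocyte markers fell for 3 of 6 and rose for 0, and endothelial markers fell for 4 of 8 and rose for 0. Stromal markers rose for 4 of 8 and fell for 0. The part of cell makeup in the members' fall was not tested.

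Adipocyte markers were examined because fat cells also burn fatty acids and can adhere to an excised kidney. Of 5 tested adipocyte markers (Adipoq, Fabp4, Ucp1, Lipe and Cidea), 0 passed the limma test, also at an unadjusted p under 0.05. Their mean log2 signal had a lowest, median and highest value of 5.15, 7.77 and 9.04 in knockout kidneys, against 5.05, 7.36 and 9.00 in wild-type kidneys, so both genotypes spanned nearly the same wide range. Of these 5 markers, Ucp1, Adipoq and Cidea had the widest ranges, while Fabp4 ran only from 11.67 to 12.23 in knockout kidneys and from 11.65 to 11.92 in wild-type kidneys. With this mean as a second term, chosen after seeing the data, 32 members fell, where 9.1% of all genes did, and 0 of the 28 calls were lost. The 4 gained were Acadvl, Hadha, Etfb and Hsd17b4. A rise with the adipocyte mean passed the test for 1 member, Acadvl (slope 0.15, limma adjusted p = 0.0459), and 0.112% of all genes. The median slope of the tested members was 0.081, with slopes from -0.063 for Acaa1a to 0.16 for Acaa1b. The adipocyte mean leans on the markers with the widest ranges, and the part of fat cells in the members' fall was not tested. Of the liver and muscle markers, only Ttr and 2 muscle genes were bright enough to test, and 0 of them passed the limma test (1 was higher at an unadjusted p under 0.05). Without the wild-type arrays 2-1 and 2-2, which had the highest macrophage means in their group, 24 members and 6.82% of all genes fell.

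**Figure D5:**
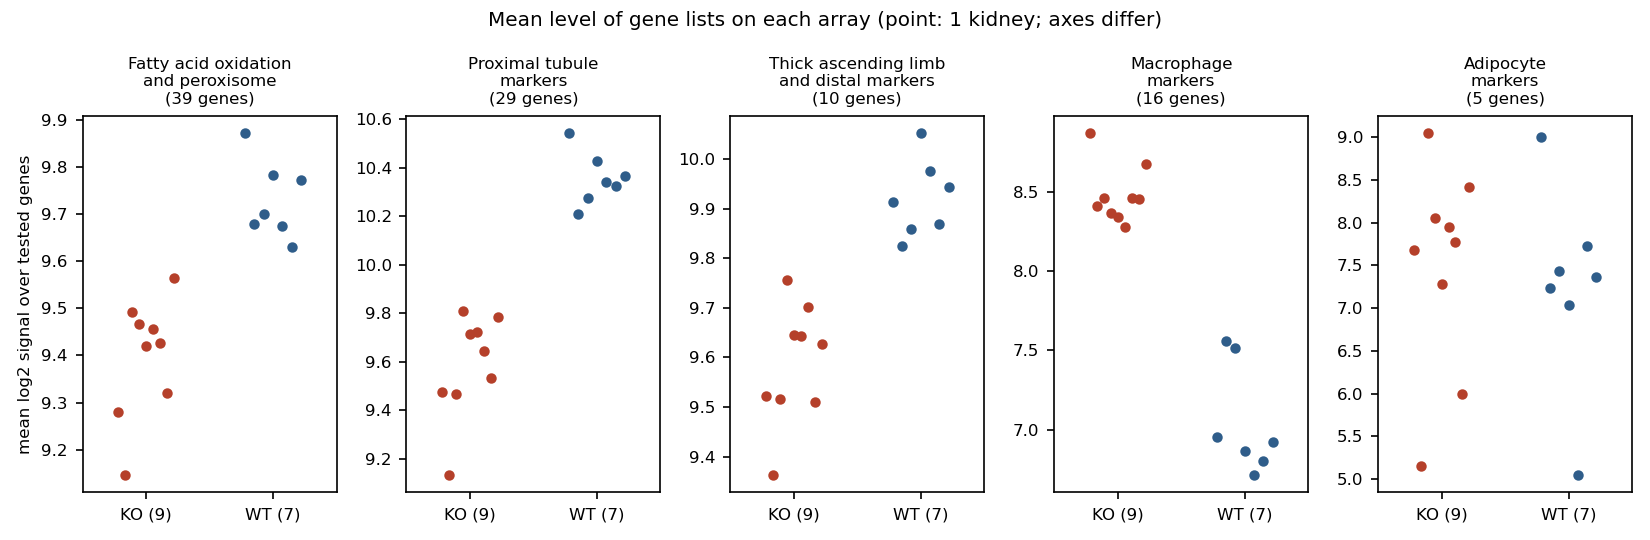
Mean log2 signal per array over the tested members and over tested markers of proximal tubule, thick ascending limb and distal tubule, macrophages and adipocytes, with knockout arrays left of wild-type arrays and 1 point per kidney. Members and proximal tubule markers are lower on every knockout array (members 9.15 to 9.56 in knockout, against 9.63 to 9.87 in wild type), macrophage markers are higher on every one, and adipocyte markers overlap (5.15 to 9.04 in knockout, against 5.05 to 9.00 in wild type).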

How the data were processed

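Kidney RNA of 16 mouse pups aged 7 days, 9 Aqp11-/- and 7 Aqp11+/+, was measured on 1 array each. The deposited values are linear signal intensity. The authors made them in GCOS 1.3, per the submitters' processing notes, and scaling between arrays was not given in the sources used here. Because 2% trimmed means spanned a 2.12-fold range, intensities were quantile normalized, floored at the 20th percentile of all values (signal 6.89, log2 2.78) and put on the log2 scale. A floor understates changes of dim genes, and quantile normalization would hide a change in total mRNA. Of 45101 probe sets, 35890 are listed in the platform annotation, 34958 of them with 1 gene and 932 with several. Entrez identifiers of 34754 matched RefSeq GRCm38.p6 and 204 did not. The brightest probe set stood for a gene, and 12500 genes exceeding the 40th percentile of 7 arrays or more were tested. Genotypes were compared using limma 3.58.1 under R 4.3.3 (genotype as the only term, eBayes with trend), adjusted over all tested genes at 0.05. Sex entered as a second term and as an interaction. Motifs were counted in RefSeq promoter windows of GRCm38.p6. The fit was tested on simulated data. Figures were drawn with matplotlib 3.10.9. Alternatives were other scalings, floors, filters, probe set rules, variance models, terms and sample subsets, and subsets kept the values normalized over 16 arrays. The adipocyte term and the alternatives for pathway genes were added after seeing the data.

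The members and all lists were chosen with earlier results of these data known. Values per group are given for the 14 called members with the largest changes, the 4 largest without a call and members too dim to test. From each further list, up to 5 called genes with the largest changes are named, plus Ppara, Ppargc1a, Cyp4a14, Cyp4a10, Pdk4 and Cat. Array values of Acadm, Plin2 and Slc22a5, and the mentions of Rxra, Angptl4, Pex10, Pex11g, Acot9, Umod and single adipocyte markers, were chosen after their values were seen.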

Additional observations from a re-analysis of the deposited data

Results flagged for a closer look

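In 11 of 154 groups of arrays checked, over 79 genes, the end array stood apart from the rest by more than Dixon's limit, where chance gives about 1 in 20. All values are log2 signals. Knockout array 2-3 was low for Acad11, at 8.57 with the nearest knockout array at 9.05, for Acaa1b, at 9.82 with the nearest at 10.31, and for the ketone body gene Bdh2, at 8.65 with the nearest at 9.07. Knockout array 1-2 was low for Acox2, at 6.01 with the nearest at 6.5, and high for the proximal tubule marker Slc6a19, at 7.59 with the nearest at 6.82. Wild-type array 2-1 was low for Acox2, at 6.67 with the nearest wild-type array at 7.05, and for Pex19, at 9.21 with the nearest at 9.51. Wild-type array 5-1 was low for Crot, at 8.89 with the nearest at 9.23, and for Ppargc1a, at 8.37 with the nearest at 8.59, and high for Plin2, at 10.03 with the nearest at 9.83. Wild-type array 1-1 was high for Acad11, at 9.6 with the nearest at 9.43.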

How the results depend on the processing

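The member and pathway results were recomputed under 33 alternatives, 16 of which left out 1 array. No member rose under any of them. Members lower numbered 28, from 23 to 30 with 1 array left out, and further pathway genes lower 45, from 40 to 46. The share of all genes lower ran from 6.90% to 8.44% with 1 array left out. Over the other 17 alternatives the median member change ran from -0.38 to -0.27, and with 1 array left out from -0.32 to -0.26. Without scaling, 3 members and 10 pathway genes were lower beside 1.23% of all genes, and 0 pathway genes were higher (3 in the main analysis). Of all called genes, 64.8% were then higher, against 52.9% with quantile normalization. With the most variable probe set per gene, 17 of 32 tested members and 6.29% of all genes were lower. Males alone gave 16 members lower beside 4.79% of all genes, and females alone 11 beside 2.55%, with 19 pathway genes lower and 1 higher. The share of all genes in the main analysis was 8.35%. These subsets hold fewer animals. Over the member values, 1132 kept direction and call, 128 lost the call, 14 gained one and 6 changed sign, all of members without a call: Crot with the mean over probe sets (0.10) and in females (0.15), Pex11a in males (0.0017), Acox3 in females (-0.067) and without wild-type array 4-2 (-0.040, and up to 0.13 without others), and Acaa1a in females (0.052). Pdk4 changed sign in females (-0.00045) and without wild-type array 4-1 (-0.028, and up to 0.21 without others). The cause was not tested. Ehhadh, Pxmp2 and Acaa1b fell under all 33. With 1 array left out, 22 of 28 members kept the call throughout, and Pex19, Pex5, Etfdh, Etfa, Acads (limma adjusted p = 0.0561 without wild-type array 3-1) and Hacl1 (limma adjusted p = 0.0523 without wild-type array 2-2) lost it at least once. The first sample number as a replicate block gave 31 members lower beside 10.2% of all genes. The labels do not say that it marks a litter.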

Other observations

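Of the 5 tested adipocyte markers, Ucp1, Adipoq and Cidea had SDs from 1.57 to 2.05 within a genotype, where members had at most 0.67. The SD of Fabp4 was 0.19 in knockout and 0.12 in wild-type kidneys, and that of Lipe was 0.48 in knockout and 0.76 in wild-type kidneys. Ucp1, the uncoupling protein of brown fat, ran from 2.78 (the floor) to 9.87 in log2 signal in knockout kidneys and from 3.10 to 9.77 in wild-type kidneys. Adipoq, the adipocyte hormone adiponectin, ran from 2.78 to 8.29 in knockout kidneys and from 3.37 to 8.69 in wild-type kidneys. Knockout array 2-3 was the lowest knockout array and wild-type array 4-1 the lowest wild-type array for both genes.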
